A study of Mus musculus with 8 samples.

Results

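Neuronal adhesion genes of the immunoglobulin, contactin and receptor phosphatase families were examined for altered DNA methylation in the hippocampus of mice lacking the DNA glycosylases Ogg1, Mutyh or both. Members were chosen by name: the receptor-type tyrosine phosphatases (Ptpr), contactins (Cntn), contactin-associated proteins (Cntnap), Ncam, Dscam, teneurin (Tenm), Lrrtm, Lrrc4, Lrfn, Cadm, Il1rap, Kirrel and neuregulin (Nrg) genes and the IgLON genes Negr1, Lsamp, Opcml and Ntm. They accounted for 155 of 9329 listed regions and for 52 of 4901 gene names. Whole-genome bisulfite sequencing was performed on hippocampal DNA of 6-month-old male C57BL/6N mice, with 2 libraries each of wild type (WT), Mutyh-/-, Ogg1-/- and double knockout (DKO) mice. DKO mice came from a cross of the single knockouts. All groups were kept in standard housing, and the labels name no treatment and no other altered gene. Whether both libraries of a group stem from different mice is not stated, so the spread between them may be technical. Whole hippocampus holds many cell types, whose shares and methylation per cell cannot be told apart, and the tables hold no measure that could check the tissue against its markers.

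Adhesion proteins of these families sit on axons, dendrites and glia and bind partners across the cleft between cells. Receptor phosphatases such as Ptprd and Ptprs act on the presynaptic side and bind postsynaptic organizers such as Il1rapl1 and the Lrfn proteins, while teneurins bind latrophilins, Lrrtm proteins bind neurexins and neuregulins activate ErbB receptors. Contactins and IgLON proteins are held in the membrane by a lipid anchor, and Cntnap2 clusters potassium channels beside the node of Ranvier. In the mammalian brain 5-methylcytosine occurs at CG sites and, in neurons, also outside CG, in the contexts CHG and CHH (H stands for any base but G).

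A region is the window of 1 kb on either side of a transcription start site (TSS) or transcription end site (TES), or the gene body between them. A region was listed only when the relative ratio, the difference of the knockout and WT scores divided by their mean, exceeded 0.1 with the same sign in all 4 pairings of a knockout with a WT library. Recomputed from the deposited scores, which have 2 decimals, the ratio was 0.1 or less in 16 of the 620 pairings of these genes (lowest 0.0959), each within reach of 0.1 before rounding. Scores run from 1 to 2 and were read as 1 plus the methylated fraction, so levels are given in percent and changes in percentage points (knockout minus WT, mean of the 4 pairings ± SD over them). The 4 pairings share their libraries and all had to pass the same limit, so this SD is not the spread between libraries. Each score is a median for a region and pair, and which sites entered it is not given. A level is therefore not shown to be the mean methylation of a whole body, in CG or in CHH. At a WT level of 65% a gain needed at least 17.4 points and a loss 15.7 points, and above 81% no gain could be listed. A gain or a loss below means a listed region, and no test was run on it, since regions were selected on these values and 2 libraries against 2 allow no exact two-sided p under 0.333. All 3 knockouts were set against the same WT libraries.

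Start sites were rarely listed, and their sequences are shown because they are short windows in which single cytosines can be counted. CG loss at the Ptpro start and CG gain at an inner Ptprr start are described below, as is CHH loss at the start of Ptprtos. The 300 bases of each (250 before and 50 after the start, plus strand, RefSeq, GRCm38.p6) lie at chr6:137252049-137252348, chr10:116177101-116177400 and chr2:162390563-162390862. Capitals mark CG in Ptpro and Ptprr, and in Ptprtos the cytosines in CHH context on the printed strand.
Ptpro: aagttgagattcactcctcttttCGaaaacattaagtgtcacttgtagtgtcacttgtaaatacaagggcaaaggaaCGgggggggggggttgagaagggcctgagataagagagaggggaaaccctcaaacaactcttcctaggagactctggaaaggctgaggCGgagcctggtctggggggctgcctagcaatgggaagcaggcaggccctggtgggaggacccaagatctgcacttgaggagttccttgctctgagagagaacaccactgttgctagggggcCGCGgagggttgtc
Ptprr: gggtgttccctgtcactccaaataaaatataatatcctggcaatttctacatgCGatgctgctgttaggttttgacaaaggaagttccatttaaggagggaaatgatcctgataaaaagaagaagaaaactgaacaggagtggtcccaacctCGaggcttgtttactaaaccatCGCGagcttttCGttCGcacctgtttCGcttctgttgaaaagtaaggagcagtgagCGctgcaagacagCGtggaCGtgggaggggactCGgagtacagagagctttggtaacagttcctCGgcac
Ptprtos: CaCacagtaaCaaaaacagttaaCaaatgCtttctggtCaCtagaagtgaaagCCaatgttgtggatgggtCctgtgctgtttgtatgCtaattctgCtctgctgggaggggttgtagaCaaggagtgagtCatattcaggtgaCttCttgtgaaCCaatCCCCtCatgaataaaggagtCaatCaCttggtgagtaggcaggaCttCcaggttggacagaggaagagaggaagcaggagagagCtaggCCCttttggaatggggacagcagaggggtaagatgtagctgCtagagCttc
The Ptpro stretch held 5 CG and the Ptprr stretch 12, while the Ptprtos stretch held 0 CG and 34 CHH cytosines. Among 32851 RefSeq promoter stretches of the same length, 94.6% held at least 1 CG, 62% held at least as many as Ptpro and 39.6% at least as many as Ptprr. The listed windows are 2 kb long, so these stretches cover part of each.

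Listed CG regions of the adhesion genes were mostly gains, while regions that were not listed have no level here. Of 109 CG regions in 40 genes, 97 were gains and 12 were losses. Mutyh-/- had 31 gains and 3 losses, where 34.9% of all listed CG regions were gains. Ogg1-/- had 30 gains and 3 losses, beside 41.5% gains among all CG regions. DKO had 36 gains and 6 losses, beside 42.1%. The median gain was 21.2 (Mutyh-/-), 21.8 (Ogg1-/-) and 21 points (DKO), against 21.5, 21.2 and 21 for all gains.

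The direction went with the length of the gene body. Of the bodies over 300 kb, 27 of 27 were gains in Mutyh-/-, where this held for 95% of all listed bodies of that length. Ogg1-/- had 28 gains of 28, beside 96%, and DKO 28 of 28, beside 95.7%. At matched length the adhesion genes thus stood close to the background, and the share of gains is not a result about these genes. Bodies between 100 and 300 kb were gains in 2 of 3, 2 of 4 and 7 of 7 regions, against 64%, 68.1% and 76.2% of all. Up to 100 kb, 0 of 1, 0 of 1 and 0 of 4 regions were gains, against 15.6%, 24.3% and 21.9% of all. Gene-body gains spanned 160 to 2269 kb (Lrrtm3 to Ptprd), and gene-body losses 1.62 to 212 kb (Lrrc4 to a Cntn1 transcript). Gene bodies with gains held a median of 5.34 CG per kb (all gains 6.97), and those with losses 12.9 (all losses 11.6).

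**Figure D1:**
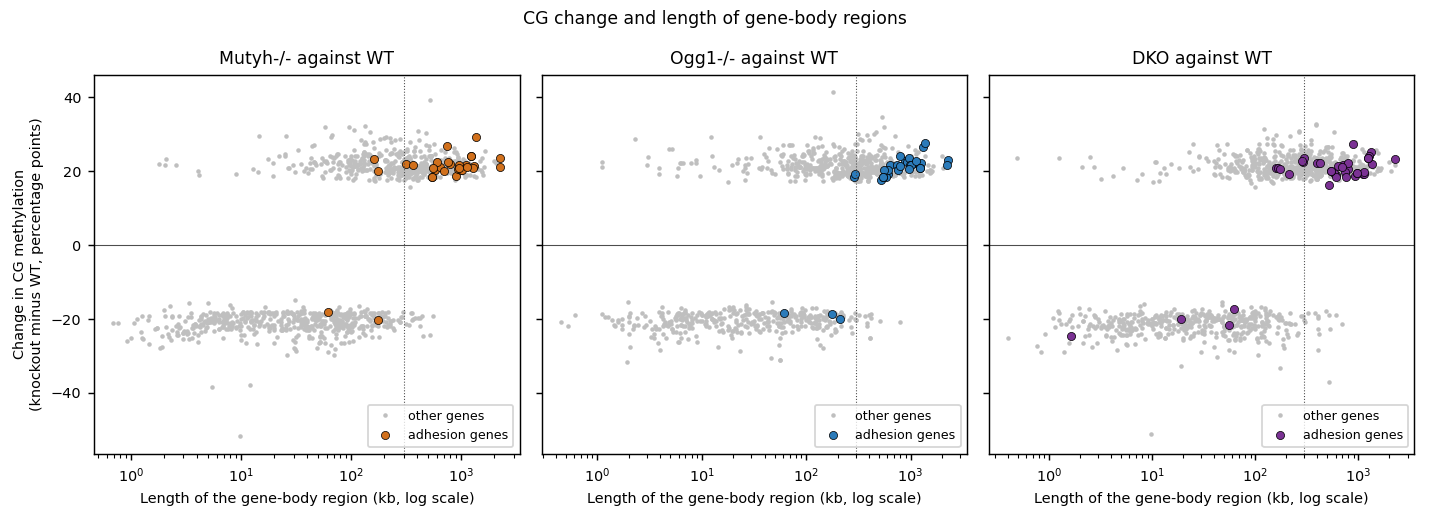
Change in CG methylation of each listed gene-body region (knockout minus WT, percentage points) against its length in kb on a log axis, for adhesion genes (coloured) and other genes (grey). The dotted line marks 300 kb; to its right the 27, 28 and 28 adhesion regions all lie above 0, as do most grey points. No point lies near 0 because such regions are not listed.

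The genes are themselves long. RefSeq holds 84 gene names that match the families, with a median length of 569 kb for the 52 with a listed region and 32.3 kb for the 32 without, against 17.2 kb for all protein-coding genes. Of 36 names over 300 kb, 32 had a region, and Tenm3, Cntn3, Cntnap4 and Dscaml1 had none. Of 48 shorter names 20 had one. The share of all genes of these lengths with a region in any context or knockout was not counted, so these counts have no background. Of 80 protein-coding adhesion genes, 24 (Mutyh-/-), 25 (Ogg1-/-) and 30 (DKO) had a CG gain, against 2.19%, 2.1% and 2.62% of all protein-coding genes. CG losses were listed for 3, 3 and 5, against 4.17%, 3.21% and 3.8%. Among protein-coding genes over 300 kb, a CG gain was listed for 22 of 36 adhesion genes in Mutyh-/- (39% of all 557 such genes). Ogg1-/- had 23 of 36 (38.4%), and DKO 24 of 36 (46.7%), with no test and no closer match of length. The name pattern Lrrc4 also matches 8 genes from Lrrc40 to Lrrc49, which are not netrin-G ligands, and none of them had a region.

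**Figure D2:**
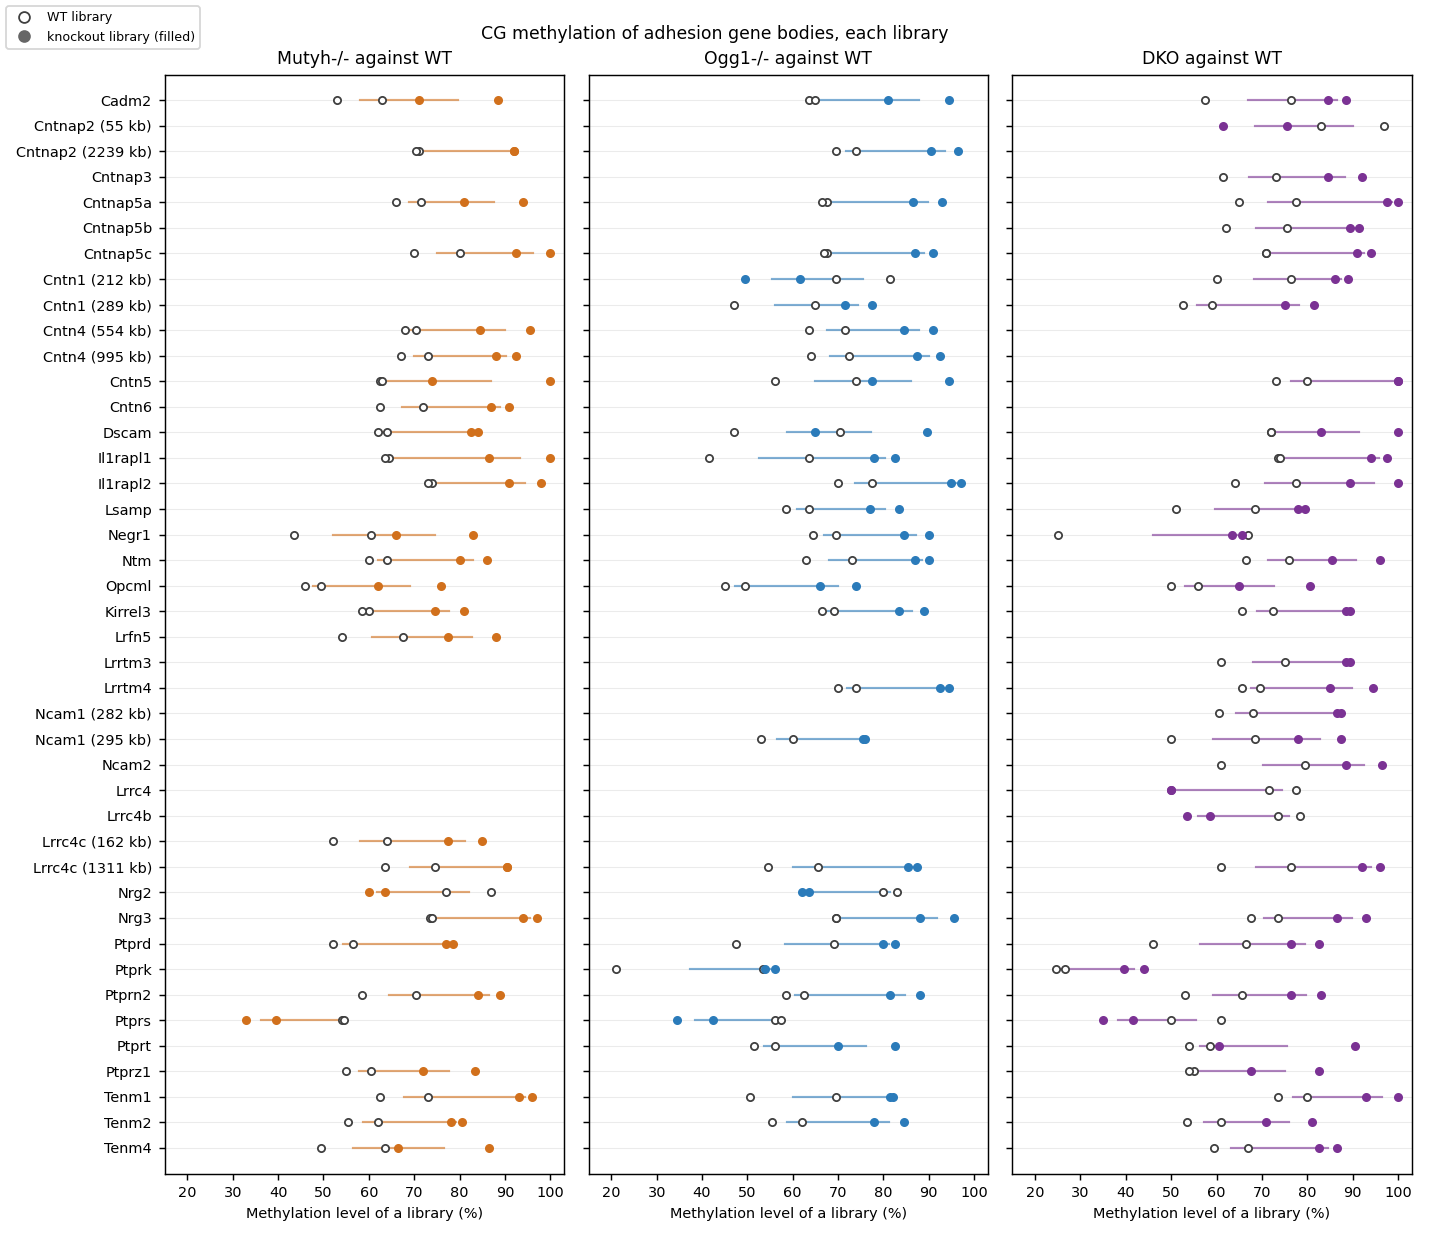
CG methylation level (%) of every listed adhesion gene body in each WT library (open points) and knockout library (filled points), with a line between the group means, genes grouped by subfamily. Knockout points lie to the right of WT points for all but Cntnap2 (55 kb), Cntn1 (212 kb) in Ogg1-/-, Lrrc4, Lrrc4b, Nrg2 and Ptprs; Dscam in Ogg1-/- and Negr1 in DKO overlap.

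Among the receptor phosphatases, Ptprd and Ptprs moved in opposite directions. Ptprd, a presynaptic organizer whose body of 2269 kb (chr4:75942237-78210895) is the longest in the set, had CG levels of 52% and 56.5% in the WT libraries and 78.5% and 77% in Mutyh-/- (change 23.5 ± 9.04 points). Against Ogg1-/- the WT libraries read 47.5% and 69% and the knockouts 82.5% and 80% (change 23 ± 2.94). In DKO the levels were 46% and 66.5% in WT and 82.5% and 76.5% in the knockout (change 23.2 ± 6.45). All knockout libraries lay above both WT libraries in each comparison. Library levels also stayed apart in 99.2% (Mutyh-/-), 99.4% (Ogg1-/-) and 98.8% (DKO) of all listed CG regions.

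Ptprs, which binds heparan and chondroitin sulfate proteoglycans, has a body of 62.1 kb (chr17:56413426-56475480) and lost CG methylation. It went from 54% and 54.5% to 33% and 39.5% in Mutyh-/- (change -18 ± 2.45), and from 56% and 57.5% to 42.5% and 34.5% in Ogg1-/- (change -18.2 ± 3.95). DKO showed 61% and 50% in WT against 41.5% and 35% (change -17.2 ± 2.06). Groups did not overlap, as in nearly all listed CG regions. Ptprf, the remaining receptor of this type, had no CG region and was listed for CHH only.

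Other phosphatases gained CG methylation in their bodies. Ptprn2, a phosphatase-like protein of secretory vesicles, changed by 22 (Mutyh-/-), 24.2 (Ogg1-/-) and 20.5 points (DKO). Ptprz1, a chondroitin sulfate proteoglycan of glia and a ligand of contactins, changed by 20 in Mutyh-/- and 20.5 in DKO. Ptprt was listed in Ogg1-/- (22.5) and DKO (19.2). In DKO its libraries were at 90.5% and 60.5%, the lower one just above the WT levels of 58.5% and 54%.

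Ptprk, a phosphatase that binds itself on neighbouring cells, had the lowest WT CG level of the set, 21%. Its body of 521 kb had 24.5% and 26.5% in WT and 39.5% and 44% in DKO (change 16.2 ± 1.89). In the Ogg1-/- table the same WT libraries read 53.5% and 21% and the knockouts 56% and 54% (change 17.8 ± 3.86). One WT library thus differed by 29 points between the tables. With WT levels averaged over both tables the DKO change was 10.4 points.

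Listed start windows of phosphatases went both ways. Ptpro is a receptor phosphatase of podocytes and neurons. At its start (chr6:137251299-137253298), CG levels of 71.5% and 69% in WT stood against 43% and 46.5% in DKO (change -25.5 ± 3.70). CHH at the same window went from 55% and 42% to 28% and 24% (change -22.5 ± 6.86), and the body of a shorter Ptpro transcript also lost CHH (-15.8). Ptpro was listed in DKO only, and whether the single knockouts differ from DKO was not tested.

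Ptprr, a phosphatase of MAP kinases, gained CG at starts inside the gene. In DKO (chr10:116176351-116178350) the levels were 56% and 52.5% in WT and 84.5% and 70% in the knockout (change 23 ± 5.48). In Mutyh-/- the listed window belongs to a start 93 bases upstream, with 56.5% and 50.5% against 71% and 74.5% (change 19.2 ± 2.99). Both windows overlap almost wholly. Among all listed TSS windows, 12.7% were CG gains in Mutyh-/- and 11% in DKO.

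Contactins gained CG methylation in their longest bodies. Cntn5, which acts in synapse formation of sensory circuits, changed by 24.2 (Mutyh-/-), 21 (Ogg1-/-) and 23.5 points (DKO), and both DKO libraries read 100% against 80% and 73% in WT. Cntn4 was listed in Mutyh-/- (20.2 over 995 kb) and Ogg1-/- (21.8). Cntn6 was listed in Mutyh-/- only, at 62.5% and 72% in WT and 91% and 87% in the knockout.

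Cntn1, a contactin of axons and of the paranodal junction, was listed for 2 transcripts that share their end. Its 289 kb body gained CG in DKO, from 59% and 52.5% to 81.5% and 75%, and in Ogg1-/-, from 65% and 47% to 71.5% and 77.5%. The shorter body of 212 kb, which lies wholly inside the longer one, gained in DKO but lost in Ogg1-/-, from 81.5% and 69.5% to 49.5% and 61.5% (change -20 ± 2.16). The WT level of the shorter body in that table lay above that of the longer one in both libraries.

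Contactin-associated proteins followed the same division by length. The whole Cntnap2 body (2239 kb) went from 71% and 70.5% to 92% in both Mutyh-/- libraries, and from 69.5% and 74% to 90.5% and 96.5% in Ogg1-/-. In DKO only the body of a 55 kb transcript at the end of the gene (chr6:47245396-47300371) was listed for CG. It was a loss, from 97% and 83% to 61.5% and 75.5% (change -21.5 ± 2.38).

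Cntnap5a, Cntnap5b, Cntnap5c and Cntnap3, relatives of neurexins, had gains only. Cntnap5a had the largest DKO gain of the set, from 77.5% and 65% to 100% and 97.5% (change 27.5 ± 9.26), with 18.8 points in Mutyh-/- and 22.8 in Ogg1-/-. Cntnap5c changed by 21.2 (Mutyh-/-), 21.8 (Ogg1-/-) and 21.5 points (DKO). Cntnap5b (21.8) and Cntnap3 (21) were listed in DKO only.

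**Figure D3:**
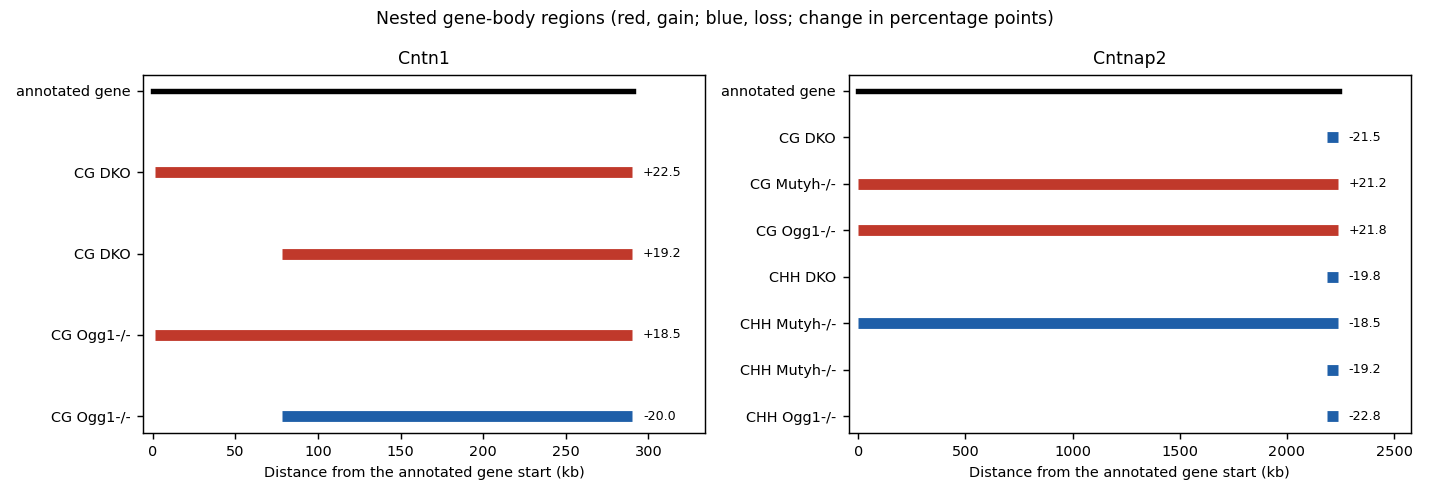
Position of every listed Cntn1 and Cntnap2 gene-body region as distance from the annotated gene start in kb, coloured by direction (red gain, blue loss), with the change in percentage points at the right. The shorter Cntn1 body changes by 19.25 in DKO and -20 in Ogg1-/-, and the short Cntnap2 body at the gene's end is blue wherever it is listed.

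Teneurins, which bind latrophilins across the synapse, had gains throughout. Tenm2 changed by 20.5 (Mutyh-/-), 22.5 (Ogg1-/-) and 18.8 points (DKO). Tenm1 on chromosome X went from 73% and 62.5% to 96% and 93% in Mutyh-/- (change 26.8 ± 10.9), and its end window next to the body (chrX:42531393-42533392) went from 74% and 69.5% to 98.5% and 89.5% (change 22.2 ± 2.99), where 15.1% of all listed end windows were gains. In Ogg1-/- Tenm1 changed by 21.8 points, and by 13.6 with WT averaged over the 3 tables. Tenm4 was listed in Mutyh-/- (20) and DKO (21.2).

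A postsynaptic partner of receptor phosphatases, Il1rapl1, had the largest CG gain of the set in both single knockouts. Il1rapl1, an X-linked interleukin receptor relative that binds Ptprd, went from 64.5% and 63.5% to 100% and 86.5% in Mutyh-/- (change 29.2 ± 6.75). In Ogg1-/- it went from 63.5% and 41.5% to 78% and 82.5% (change 27.8 ± 3.10), and in DKO from 73.5% and 74% to 94% and 97.5% (change 22 ± 4). The second WT library read 41.5% in one table and 74% in another, and with WT averaged over the 3 tables the Ogg1-/- change was 16.8 points and the DKO change 32.3. Il1rapl2 changed by 21 (Mutyh-/-), 22.2 (Ogg1-/-) and 24 points (DKO).

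Netrin-G ligands split by length. Lrrc4c (NGL-1), with a body of 1311 kb, gained CG by 21.5 (Mutyh-/-), 26.5 (Ogg1-/-) and 25.2 points (DKO). Lrrc4 (NGL-2), with a body of 1.62 kb, went from 77.5% and 71.5% to 50% in both DKO libraries (change -24.5 ± 3.51). Lrrc4b (NGL-3) lost CG in DKO over its body of 18.9 kb, from 78.5% and 73.5% to 58.5% and 53.5%, and over the adjoining end window, from 57% and 56% to 36.5% and 36% (change -20.2 ± 1.71). Among all listed end windows 20.1% were CG gains in DKO.

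Lrfn and Lrrtm genes, which also code for postsynaptic leucine-rich repeat proteins, were listed for few regions. The Lrfn1 end window (chr7:28466549-28468548) was lower in Mutyh-/-, at 73% and 67% in WT and 48.5% and 50% in the knockout (change -20.8 ± 3.30). Lrfn5 gained in the same genotype (22). Lrrtm4 gained in Ogg1-/- (21.5) and DKO (22.2), and Lrrtm3 in DKO (21).

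All 4 IgLON genes, which shape neurite outgrowth and synapse number, had gains in CG. Opcml changed by 21.2 (Mutyh-/-), 22.8 (Ogg1-/-) and 19.8 points (DKO), and Ntm by 21, 20.5 and 19.5 in the same order. Lsamp was listed in Ogg1-/- (19.2) and DKO (19). Negr1 in DKO had WT levels of 67% and 25% and knockout levels of 65.5% and 63.5%, so that the groups overlapped.

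The Negr1 change in DKO was 18.5 ± 2.52, and its 4 pairings of a WT with a knockout library differed by 19, 21, 19 and 15 points. A library's level depended on the library it was paired with, so that averaged levels overlapped although each pairing was a gain. The second WT library read 43.5% in the Mutyh-/- table and 69.5% in the Ogg1-/- table for the same region, and with WT averaged over the 3 tables the change was 9.5 points in DKO and 32.2 in Ogg1-/- (20.2 as listed). The levels of Dscam in Ogg1-/- also overlapped, at 47% and 70.5% in WT and 89.5% and 65% in the knockout, with pair differences of 17, 23, 16 and 18 points. Library levels stayed apart in 34 of 34 CG regions of Mutyh-/- (99.2% of all CG regions), 32 of 33 of Ogg1-/- (99.4%) and 40 of 42 of DKO (98.8%).

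Further immunoglobulin genes had CG gains of similar size. Dscam, which sets self-avoidance of neurites, changed by 20.2 (Mutyh-/-), 18.5 (Ogg1-/-) and 19.5 points (DKO). Cadm2 (SynCAM 2) changed by 21.8, 23.5 and 19.5, and Kirrel3, a synaptic protein of the nephrin family, by 18.5, 18.5 and 20, in the same order. Ncam1, the main carrier of polysialic acid in the brain, was listed in Ogg1-/- (19.2) and DKO (23.5), and Ncam2 in DKO (22.2).

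The neuregulins, growth factors for ErbB receptors, differed among themselves. Nrg3 gained CG by 21.8 (Mutyh-/-), 22.2 (Ogg1-/-) and 19.2 points (DKO). Nrg2 lost CG, from 87% and 77% to 60% and 63.5% in Mutyh-/- (change -20.2 ± 2.22) and from 83% and 80% to 62% and 63.5% in Ogg1-/- (change -18.8 ± 1.71). Nrg1 and Nrg4 had no CG region.

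**Figure D4:**
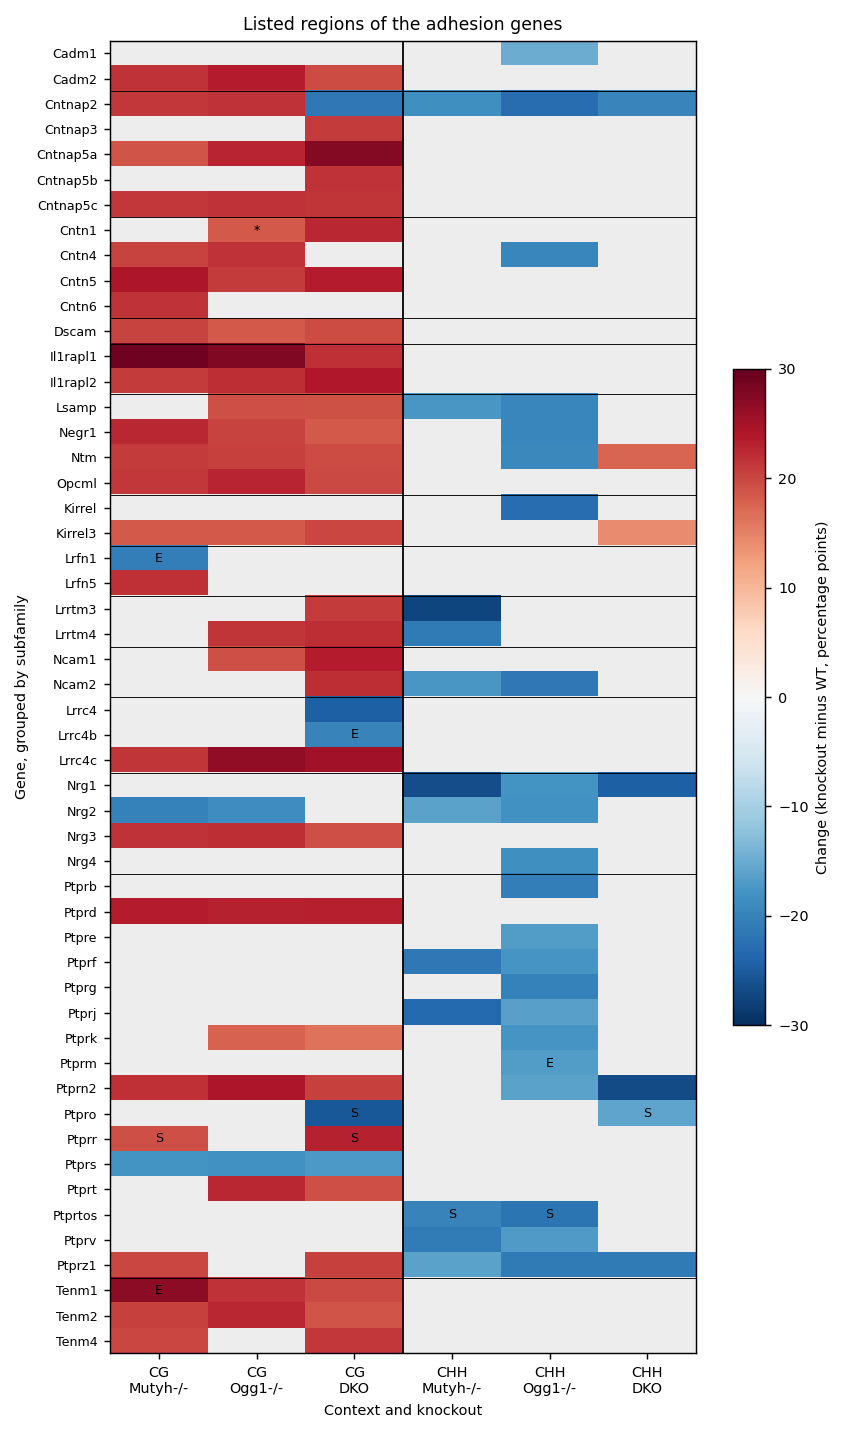
Change in percentage points of each adhesion gene with a listed region, by context and knockout (red gain, blue loss, grey not listed; the longest gene body is coloured). S marks a start window and E an end window, with the window's own change coloured where no body is listed; the star marks Cntn1, whose shorter body went the other way. CG columns are mostly red and CHH columns blue except Ntm and Kirrel3 in DKO.

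Outside CG the direction was the reverse. Of 46 CHH regions in 26 genes, 43 were losses. Mutyh-/- had 0 gains among 14 regions, where 0.45% of all CHH regions were gains, and Ogg1-/- had 0 among 23, beside 0.198%. In DKO 3 of 9 were gains, beside 2.29% of all CHH regions. The direction in the single knockouts was thus that of nearly all CHH regions. Among CHH bodies over 300 kb in DKO 3 of 4 were gains, against 19.5% of all 82. Kirrel3 was listed under 2 transcripts with the same values, so the 3 gains were 2 distinct regions. CHH losses were listed for 10 of the 80 protein-coding genes in Mutyh-/- (5.47% of all), 20 in Ogg1-/- (7%) and 5 in DKO (3.09%), and CHH gains for 0, 0 and 2 (0.032%, 0.0183% and 0.0731% of all). The 80 genes have a median length of 209 kb, against 17.2 kb for all protein-coding genes. No share at matched length is given for these CHH counts, so they are not a result about the families. The median CHH loss was -19.6 (Mutyh-/-), -19.2 (Ogg1-/-) and -21.9 points (DKO). Library levels did not overlap in any of the 46 CHH regions, as in 99.5%, 99.3% and 99.7% of all CHH regions. The CHG tables held 8 regions in all and none in these genes.

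The gains in DKO were in 2 genes of chromosome 9. Kirrel3, listed under 2 transcripts, went from 16% and 18% to 33% and 29.5% in CHH (change 14.2 ± 1.89). Ntm went from 18.5% and 16% to 38% and 31.5% (change 17.5 ± 3.42). In Ogg1-/- the same Ntm body was a CHH loss, from 33.5% and 48% to 19% and 24% (change -19.2 ± 7.41). The second WT library thus read 16% in one table and 48% in the other, and with WT averaged over both the change was 5.75 points in DKO and -7.5 in Ogg1-/-.

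The phosphatases, the largest subfamily with 23 annotated names, had 20 CHH losses in 12 genes. CHH regions were listed for 3 of 4 IgLON genes and 3 of 5 neuregulins. The share of all genes with a CHH region in any knockout was not counted, so these counts are not a result about the subfamilies. Ptprz1 changed by -16 (Mutyh-/-), -21.2 (Ogg1-/-) and -21.2 points (DKO), while its CG level was higher in Mutyh-/- and DKO. Ptprn2 went from 58% and 46% to 21.5% and 29% in DKO (change -26.8 ± 7.14) and changed by -16 in Ogg1-/-. Ptprf changed by -21.5 in Mutyh-/- and -17.8 in Ogg1-/-, and Ptprj, a phosphatase of vessels and blood cells, by -23.2 and -16.2. Without the second Mutyh-/- library the Ptprj change was -15.5.

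Ogg1-/- alone listed CHH losses of Ptprb (-20.8), an endothelial phosphatase, Ptprg (-20.2), Ptprk (-17.8), Ptpre (-16.8) and the Ptprm end window (-16.8; chr17:66665848-66667847). Whether these differ from the other knockouts was not tested. Ptprv, a transcribed pseudogene in RefSeq, lost CHH in Mutyh-/- (-21) and Ogg1-/- (-17). The start of Ptprtos, a long non-coding RNA within Ptprt (chr2:162389813-162391812), went from 49.5% and 45% to 27% and 27.5% in Mutyh-/- (change -20 ± 3.16) and from 47.5% in both WT libraries to 22% and 29% in Ogg1-/- (change -22 ± 4.08).

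Nrg1 and Cntnap2 were CHH losses in each knockout. The Nrg1 transcript body of 98.2 kb (chr8:31819028-31917203) changed by -26.5 ± 14 (Mutyh-/-), -18 ± 3.46 (Ogg1-/-) and -24.5 ± 7.90 points (DKO). Its second WT library read 68%, 42% and 65.5% in the 3 tables and the first 37%, 39% and 40.5%. Without the second WT library the Mutyh-/- change was -15 points. The short Cntnap2 body went from 42% and 41% to 25% and 19.5% in Mutyh-/-, from 50.5% and 39% to 24% and 20% in Ogg1-/- and from 43% and 40.5% to 23% and 21% in DKO. In Mutyh-/- the whole Cntnap2 body was also listed (-18.5). All knockout levels of both genes lay below the WT levels of their table, and library levels stayed apart in nearly all listed CHH regions.

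Lrrtm3 had the largest CHH loss of the set, from 48% and 50.5% to 20% and 23.5% in Mutyh-/- (change -27.5 ± 12.1), and Lrrtm4 changed by -21.2 in the same genotype. Ncam2 changed by -17.5 in Mutyh-/- and by -21.5 ± 13.3 in Ogg1-/-, where it was -13 without the first WT library. In the same order Lsamp changed by -17.5 and -19.5, and Nrg2 by -16 and -18.2. Kirrel (-22.8), Cntn4 (-19.5), Negr1 (-19.5), Nrg4 (-18.5) and Cadm1 (-15) were listed in Ogg1-/- only.

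Of the 52 genes, 26 were listed for CG only, 12 for CHH only and 14 for both. Within 1 genotype, a CG gain stood beside a CHH loss in 2 genes in Mutyh-/- (Cntnap2 and Ptprz1), in 7 in Ogg1-/- and in 2 in DKO (Ptprn2 and Ptprz1). The 7 were Cntn4, Cntnap2, Lsamp, Negr1, Ntm, Ptprk and Ptprn2. For Cntnap2 in Ogg1-/- the CG gain was that of the whole body and the CHH loss that of the short body at its end. Loss in both contexts was seen for Nrg2 in Mutyh-/- and Ogg1-/-, and for Cntnap2 and Ptpro in DKO. Kirrel3 and Ntm gained in both contexts in DKO. No share over all genes is given for these counts by context, so they are not a result about the adhesion genes.

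WT levels of a single library were not constant between tables. For 35 CG regions of these genes listed in at least 2 tables, 70 library values had a median range of 7.5 points, with 25 over 10 and 9 over 20, and the highest was 44.5 (Negr1). Over all 919 such CG regions the median range was 4.5, with 443 of 1838 library values over 10 and 116 over 20. Transcripts with equal values, such as those of Cntn5 and Negr1, were each counted. The median change of the same 35 regions was 21 points in size. For 13 CHH regions the median range was 7.75 and the highest 32 (Ntm), against a median of 5.5 over all 1118 such CHH regions. Averaging WT over every table that lists a region turned no direction. Within 1 table the level of a WT library also differed between its 2 pairings, by a median of 7 points for CG gains of these genes and 2 for CG losses (6 and 3 over all CG regions).

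**Figure D5:**
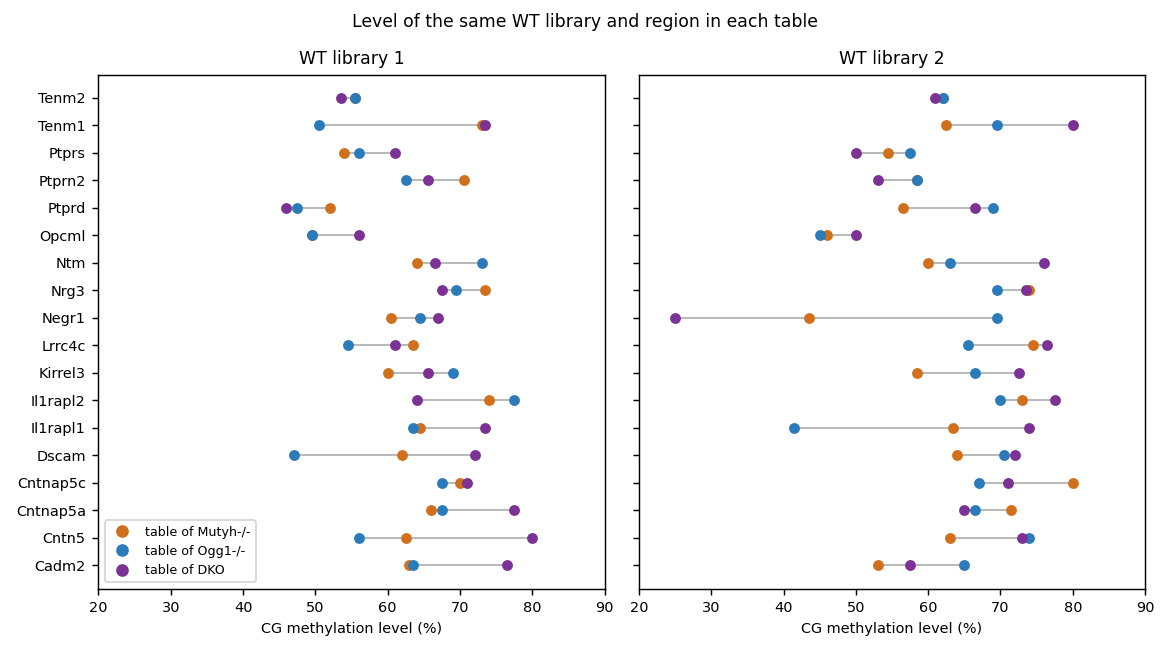
CG level (%) of WT library 1 (left) and WT library 2 (right) in the tables of the 3 knockouts, for adhesion regions listed in all of them (repeats with equal values drawn once). Points of a row are the same library and region; Negr1 in library 2 spans 25% to 69.5%.

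Changes lay close to the listing threshold. The weakest of the 4 pairings had a median relative ratio of 0.105 over the 155 regions, and it exceeded 0.12 in 13 of them (8.39%, against 16.2% of all listed regions). Among the 13 were Il1rapl1 in both single knockouts, the Ptpro start in both contexts, Lrrc4 and the Lrrc4b end window in DKO, and the short Cntnap2 body in CHH in each knockout.

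The partners of these adhesion proteins, a list of 56 genes with neurexins, neuroligins, latrophilins, netrin-Gs and ErbB receptors, were counted by the same rule. CG gains and losses were listed for 12 and 4 of these genes in Mutyh-/-, 10 and 6 in Ogg1-/- and 11 and 2 in DKO. Over all protein-coding genes gains were listed for 2.19%, 2.1% and 2.62% and losses for 4.17%, 3.21% and 3.8%. CHH gains and losses were listed for 1 and 12, 0 and 10, and 0 and 4 of the 56, beside losses for 5.47%, 7% and 3.09% of all. No test compared the lists, and gene lengths were not matched. The largest mean gains in the list were those of the netrin receptor Dcc in Ogg1-/- (CG, 25.8 ± 14.8 points, with pairings of 18, 19, 48 and 18) and of glypican Gpc4, a heparan sulfate proteoglycan that binds Ptprs and Lrrtm4, in DKO (CG, 25.5 ± 5.69; from 42% and 65.5% to 83% and 75.5%). The largest losses were those of the syndecan Sdc3 at its start in Mutyh-/- (CG, -38.5 ± 16.5; from 73.5% and 81.5% to 29% and 49%) and of the latrophilin Lphn3 in Mutyh-/- (CHH, -27 ± 14.0; from 58% and 47.5% to 30% and 21.5%).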

How the data were processed

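Whole-genome bisulfite libraries (2 per genotype) were processed by the authors. Per the labels, FastQC and Bismark 0.22.3 with GRCm38 were used. Cytosines with coverage under 4 were removed, and HMST-Seq-Analyzer compared each knockout with each WT library by a Wilcoxon test, with at least 3 sites in a start or end window and 5 in a body, at most 200 bp apart. The deposited median of each region and pair is a score from 1 to 2. Deposited p-value and relative ratio columns hold the authors' own comparisons and were not used. The DKO CHG table holds no region. The study states sequencing depth as an average per sample only, and coverage per region is unknown.

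A library's level was averaged over its 2 pairs (Python 3.11.15, pandas 2.3.3). Starts were made 1-based and chromosome codes 20 and 21 read as X and Y. Entries repeating another transcript's values (15 of 155) were kept and also counted once. Scripts were tested on simulated data.

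The members and lists were chosen with earlier results of these data known. Named genes were start and end windows, genes listed in several genotypes or in opposite directions, and the largest changes. Alternatives were distinct regions, stricter ratios, narrower name patterns, bodies only, leaving out a library, and same-numbered pairs.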

Additional observations from a re-analysis of the deposited data

Results flagged for a closer look

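In 2 gene bodies a gain was listed in DKO and a loss in Ogg1-/-, for the same region and context. Pairings of a listed region share their sign by rule, so their agreement adds nothing. The share of all regions listed in opposite directions is not given. The Cntn1 body of 212 kb (92129128 to 92340967 on chromosome 15) changed in CG by 19.25 points in DKO and by -20 in Ogg1-/-. WT levels were 60% and 76.5% in the DKO table and 81.5% and 69.5% in the Ogg1-/- table. The Ntm body (28996964 to 29962129 on chromosome 9) changed in CHH by 17.5 points in DKO and by -19.25 in Ogg1-/-, with WT levels of 18.5% and 16% against 33.5% and 48%. Knockout levels of Ntm were 38% and 31.5% in DKO and 19% and 24% in Ogg1-/-. With WT averaged over both tables the Cntn1 changes were 15.6 points in DKO and -16.4 in Ogg1-/-, and the Ntm changes 5.75 and -7.5. The difference between the genotypes was not tested, and both share the WT libraries.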

How the results depend on the processing

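Counts depended on the relative ratio. At a limit of 0.2 in all 4 pairs each count of gains or losses fell to 0. At 0.12, chosen after seeing the data, CG gains and losses numbered 1 and 0 in Mutyh-/-, 1 and 0 in Ogg1-/- and 0 and 3 in DKO, and CHH losses 2, 3 and 3, with 0 CHH gains in DKO. The tables hold called regions only, so counts could not be recomputed without a library. Leaving out each library in turn moved the median CG gain between 20.5 and 21.5 in Mutyh-/-, 20.25 and 22 in Ogg1-/- and 20.25 and 21 points in DKO, and the median CHH loss between -20 and -18.25, -18.5 and -18, and -23 and -18. With the replicate block (same-numbered pairs only) the median CG gain was 20.5 in each genotype. All 4 pairings of a region had to pass the limit, so the pairings left kept the sign and the size that it requires. These medians thus cannot show how far a result rests on a single library. Replicate numbers are not stated to pair samples.

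Averaging WT over every table that lists a region, also chosen after seeing the data, turned 0 of 155 directions but moved 42 changes by more than their own SD over pairs. Only entries listed in at least 2 tables could turn or move, which were 91 of 109 in CG and 29 of 46 in CHH. The smallest left were 9.5 points (Negr1, DKO, CG) and 5.75 (Ntm, DKO, CHH). Distinct regions, gene bodies only, narrower name patterns and means in place of medians left every count within 1.5 times and every direction as it was. Coverage per region is unknown, so no interval can be given for a level.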
